A study of Mus musculus with 12 samples.

Results

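The comparison described here asks whether cells lacking part of Piezo1 and their unedited counterparts changed differently between days 14 and 28 of osteocyte differentiation. OCY454 cells are a mouse line resembling osteocytes, kept at 33 °C to divide and moved to 37 °C to differentiate. In the KO line exons 19 to 21 of Piezo1 were deleted with CRISPR-Cas9, and the WT line was not edited. Poly(A) RNA was sequenced at days 1, 14 and 28, and 8 of the 12 libraries enter the contrast, 2 each for KO at day 28, KO at day 14, WT at day 28 and WT at day 14. Both lines were grown in alpha-MEM with serum and moved to 37 °C in the same way. For each of 13772 genes tested, the difference of changes is the log2 fold change of day 28 over day 14 in KO minus the same in WT. A positive value means that the KO change lay above the WT change. A gene was called when its adjusted p was below 0.05 in edgeR's quasi-likelihood test with Benjamini-Hochberg adjustment over all genes tested. Whether the replicates came from separate cultures, and from how many edited clones, is not in the labels. The p-values therefore measure nothing beyond the spread between libraries, which may be technical and was estimated from all 12, day 1 included. In bulk RNA, fewer cells of a kind and less RNA per cell cannot be told apart.

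Piezo1 encodes a cation channel of the plasma membrane that opens under mechanical force. Osteocytes are the matrix-embedded cells of bone that sense load, and they arise from osteoblasts, which secrete collagen and mineralize it. Secreted proteins fold in the endoplasmic reticulum with the help of resident chaperones. When unfolded protein accumulates there, cells raise these chaperones through ATF6 and XBP1, and the kinase PERK slows translation while the factor ATF4 raises genes of amino acid supply, a response also reached through other stress kinases.

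The 8 libraries held between 8590067 and 15357427 counts, and mitochondrially encoded genes took 1.122% to 2.019% of them. Replicates lay furthest apart at day 28, whereas the fit shared each gene's spread over all 6 groups. Standard errors may therefore understate the spread at day 28. Levels are given as CPM, counts scaled to equal library size. Among genes at 10 CPM or more, the 2 replicates stood over 1.5-fold apart for 62 of 9083 genes in KO at day 28 and 5 of 9232 in KO at day 14, against 167 of 9326 in WT at day 28 and 24 of 9419 in WT at day 14. A deposited row was named YAPS127_P2A_EGFP, after YAP and EGFP, and no label describes such a construct. It held 2 to 7 counts in KO at day 28 and 1 to 3 in KO at day 14, against 75 to 224 in WT at day 28 and 45 to 82 in WT at day 14. Its part in the results was not tested.

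Across the genes tested, 3323 were called in the difference of changes, or 24.1%. Of these, 1738 were higher, 12.6% of all genes tested, and 1585 were lower, 11.5%. More than 2-fold differences were found for 392 called genes that were higher and 367 that were lower, and the median over all genes was -0.00291. Within the lines, 6981 genes (50.7%) were called between the days in KO and 4778 (34.7%) in WT. Of the 1738 genes with a higher difference, 748 rose in KO and were not called in WT, 504 rose in both lines and 249 fell in WT and were not called in KO. Among the 1585 with a lower difference, 857 fell in KO and were not called in WT, 370 fell in both lines and 183 were not called in KO and rose in WT. A further 282 genes were called in opposite directions, 174 of them up in KO and down in WT and 108 down in KO and up in WT.

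**Figure D1:**
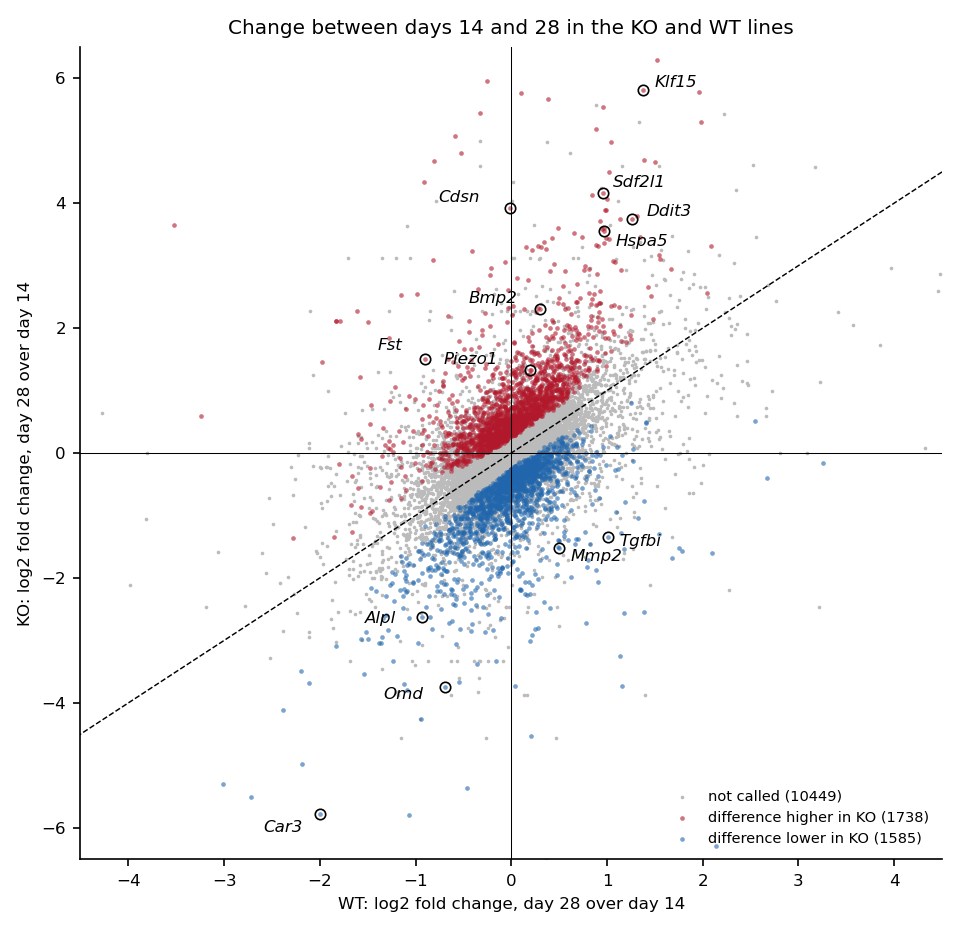
Log2 fold change of day 28 over day 14 in KO (vertical axis) against that in WT (horizontal axis), 1 point per gene tested; red and blue mark the 1738 and 1585 genes called higher and lower in the difference, and the dashed line is an equal change in both lines. Circled genes other than Klf15 are named in the text, and 15 genes lie outside the axes. Klf15 had a difference of 4.44, with 2 and 4 counts in KO at day 14.

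The edited gene itself changed differently. On the minus strand of chromosome 8 (122481698 to 122551329, GRCm38/mm10), Piezo1 stood at 281 and 276 CPM in KO at day 28 and 114 and 108 CPM in KO at day 14, against 235 and 242 CPM in WT at day 28 and 211 and 206 CPM in WT at day 14. The KO libraries of day 14 were the lowest of the 8, and the KO libraries of day 28 the highest. Piezo1 rose by 1.33 ± 0.062 in KO and by 0.19 ± 0.060 in WT (log2), so the difference of changes was 1.13 ± 0.085, adjusted p = 3.28e-09. The gene-level count covers exons outside the deletion and so does not check the edit. An exon of Ctu2 lies across Piezo1 in antisense, and because no source used here states how strand was counted, reads of the 2 genes cannot be told apart. The same limit holds for other genes described here that an exon of another gene overlaps in antisense, among them Manf, Cebpb, Yars, Psma4, Psma5, Runx2, Loxl2, Loxl3, Fkbp10, Fkbp14, Notum, Elovl6, Plk1, Tpi1, Fst, Adamts4, Avil, Pdgfra, Sqstm1 and Spcs3. Piezo2, the related stretch-gated channel gene, stood at 3.98 and 3.73 CPM in KO at day 28 and 4.53 and 3.26 CPM in KO at day 14, against 33.1 and 31.2 CPM in WT at day 28 and 26.6 and 28.0 CPM in WT at day 14, and its difference of -0.25 ± 0.23 was not called (adjusted p = 0.487).

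Chaperones and folding enzymes of the endoplasmic reticulum formed the group with the largest median difference among the lists of at least 9 genes. All 21 members tested were higher in the difference, against 12.6% of all genes, with a median of 1.98 and a range from 0.49 to 3.20. All 21 rose in KO (median 2.48), and 19 rose in WT (median 0.59), where 25.6% of all genes rose in KO and 17.9% in WT. Their summed level was 65505 and 61323 CPM in KO at day 28 and 8779.5 and 8648 CPM in KO at day 14, against 40154 and 45862 CPM in WT at day 28 and 27158 and 28738 CPM in WT at day 14. The sums of the 4 groups did not overlap, and KO at day 14 was the lowest of them. The contrasts between the lines share their libraries with the difference. At day 28, 14 of the 21 were higher and 1 lower in KO than in WT, where 41.0% of all genes were called, 19.8% higher. At day 14 all 21 were lower in KO, where 49.7% of all genes were called, 25.9% lower.

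Several of these genes carry the endoplasmic reticulum stress response element, a motif bound by NF-Y and ATF6, spelled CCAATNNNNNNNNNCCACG and searched on both strands from 250 bases before to 50 bases after the start. It was present in 8 of the 19 members with a RefSeq promoter (42.105%), in 16 of 10537 genes tested (0.152%) and in 37 of all 27025 genes (0.137%). The 8 are among the 16 and the 37. These shares describe the promoters of the list and not its change between the days. The 4 with the largest differences of changes among the 8 are shown because their genes rose most steeply in KO relative to WT. Each line gives the 250 bases before the start in RefSeq (GRCm38.p6), 5′ to 3′ on the gene's strand, with matches in capitals; a match on the opposite strand reads CGTGG at its left end and ATTGG at its right end. A match is a description of the letters and not evidence of binding.
Creld2, chr15:88819396-88819645, plus strand: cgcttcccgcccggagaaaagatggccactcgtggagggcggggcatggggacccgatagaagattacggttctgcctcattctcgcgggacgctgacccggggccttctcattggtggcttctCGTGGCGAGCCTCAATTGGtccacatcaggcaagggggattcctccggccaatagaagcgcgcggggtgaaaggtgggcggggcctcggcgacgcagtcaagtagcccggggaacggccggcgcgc
Hsp90b1, chr10:86705445-86705694, minus strand: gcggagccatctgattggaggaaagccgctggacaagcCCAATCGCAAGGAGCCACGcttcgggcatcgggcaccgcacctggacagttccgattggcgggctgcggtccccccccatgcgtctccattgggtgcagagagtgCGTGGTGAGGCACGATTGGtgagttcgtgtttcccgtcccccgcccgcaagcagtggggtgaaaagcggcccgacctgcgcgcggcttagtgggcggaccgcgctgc
Hspa5, chr2:34771840-34772089, plus strand: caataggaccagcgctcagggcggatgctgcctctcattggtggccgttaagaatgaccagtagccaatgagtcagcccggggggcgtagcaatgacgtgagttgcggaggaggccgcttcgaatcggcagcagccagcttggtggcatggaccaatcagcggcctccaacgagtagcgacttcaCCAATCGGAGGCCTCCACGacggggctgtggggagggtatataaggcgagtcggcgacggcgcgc
Calr, chr8:84846932-84847181, minus strand: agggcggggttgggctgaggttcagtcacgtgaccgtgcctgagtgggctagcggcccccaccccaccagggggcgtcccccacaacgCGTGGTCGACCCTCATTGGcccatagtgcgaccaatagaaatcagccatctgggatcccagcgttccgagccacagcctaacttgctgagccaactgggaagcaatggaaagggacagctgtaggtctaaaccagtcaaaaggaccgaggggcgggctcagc
The Hsp90b1 window held 2 matches and the others 1. The match nearest the start ended 46 bases before it in Hspa5, 88 in Hsp90b1, 107 in Creld2 and 143 in Calr.

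Hspa5 encodes BiP, the main Hsp70 chaperone of the endoplasmic reticulum. It stood at 13113 and 11837 CPM in KO at day 28 and 1080.5 and 1032 CPM in KO at day 14, against 9778 and 10339.5 CPM in WT at day 28 and 4987 and 5262 CPM in WT at day 14. The days did not overlap in either line, and the low values were those of KO at day 14. The difference was 2.59 ± 0.095, adjusted p = 2.18e-14. Hsp90b1, which encodes the Hsp90 chaperone GRP94, stood at 20957 and 19452 CPM in KO at day 28 and 1744 and 1763 CPM in KO at day 14, against 9628 and 12493 CPM in WT at day 28 and 6740.4 and 7351 CPM in WT at day 14. Its 2 KO libraries of day 28 exceeded every other library, and the difference was 2.88 ± 0.13. An exon of 1810014B01Rik lies across Hsp90b1 in antisense, with the same limit. Creld2, which is induced by endoplasmic reticulum stress, stood at 1396 and 1349 CPM in KO at day 28 and 95.0 and 90.0 CPM in KO at day 14, against 666 and 744 CPM in WT at day 28 and 355 and 362 CPM in WT at day 14, with a difference of 2.92 ± 0.094. Calr, the calcium-binding lectin chaperone calreticulin, stood at 8505 and 8027 CPM in KO at day 28 and 1024 and 994 CPM in KO at day 14, against 5066 and 5795 CPM in WT at day 28 and 3909 and 4044 CPM in WT at day 14, with a difference of 2.58 ± 0.098. The largest difference in the list was that of Sdf2l1, which works with the BiP cochaperones of the ERdj family, at 3.20 ± 0.12. The protein disulfide isomerase gene Pdia4 (2.73 ± 0.10) and the secreted stress factor gene Manf (2.64 ± 0.094) came after Creld2 and Hsp90b1. Members nearest to 0 were Xbp1 (0.49), Selenos (0.49) and Erp44 (0.56), all called.

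Genes of the integrated stress response moved in the same direction. Of 23 members tested, 19 were higher, 1 lower and 3 not called in the difference, with a median of 1.03. Of all genes, 12.6% were higher and 11.5% lower. Ddit3, which encodes the transcription factor CHOP, stood at 1249.8 and 1144 CPM in KO at day 28 and 84.6 and 93.4 CPM in KO at day 14, against 1449 and 1265 CPM in WT at day 28 and 586 and 548 CPM in WT at day 14. KO and WT lay close together at day 28, KO at day 14 was the lowest group, and the days did not overlap in either line. Its difference was 2.49 ± 0.11, adjusted p = 1.14e-12. The pseudokinase gene Trib3 differed by 2.79 ± 0.10, Cebpb by 1.90 ± 0.11, the secreted factor gene Gdf15 by 2.48 ± 0.34, and Atf4 itself by 1.14 ± 0.082. Asparagine synthetase (Asns) differed by 1.22 and the serine synthesis enzyme gene Phgdh by 1.43. Ddit4, an inhibitor of mTORC1 signalling that also responds to hypoxia, was the member lower in the difference, at -1.21 ± 0.26.

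Amino acid supply and tRNA charging showed the same direction in most members. Of 18 amino acid transporters, 10 were higher and 1 lower, with a median of 0.64, against 12.6% and 11.5% of all genes. The lower one was Slc7a6 (-0.34), and when 1 library was left out the count called lower was 2 without replicate 2 of WT at day 28 and 0 without any of the other 7. Slc3a2, the heavy chain of the heteromeric transporters, stood at 633 and 633 CPM in KO at day 28 and 119 and 122 CPM in KO at day 14, against 384 and 443 CPM in WT at day 28 and 234 and 229 CPM in WT at day 14. KO at day 28 was the highest group and KO at day 14 the lowest, and the difference was 1.55 ± 0.095. Its light chains Slc7a5 and Slc7a11 differed by 1.45 ± 0.090 and 1.56 ± 0.24. Of 18 cytosolic aminoacyl-tRNA synthetases, 12 were higher and 2 lower (median 0.59), led by Wars (1.21 ± 0.12), Sars (1.10 ± 0.087) and Yars (1.01 ± 0.10). The 2 that were lower were Hars (-0.37) and Rars (-0.27). The count called lower was 0 without replicate 1 of KO at day 28, replicate 2 of KO at day 14 or replicate 2 of WT at day 14, and 1 without replicate 2 of KO at day 28 or replicate 1 of WT at day 14.

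**Figure D2:**
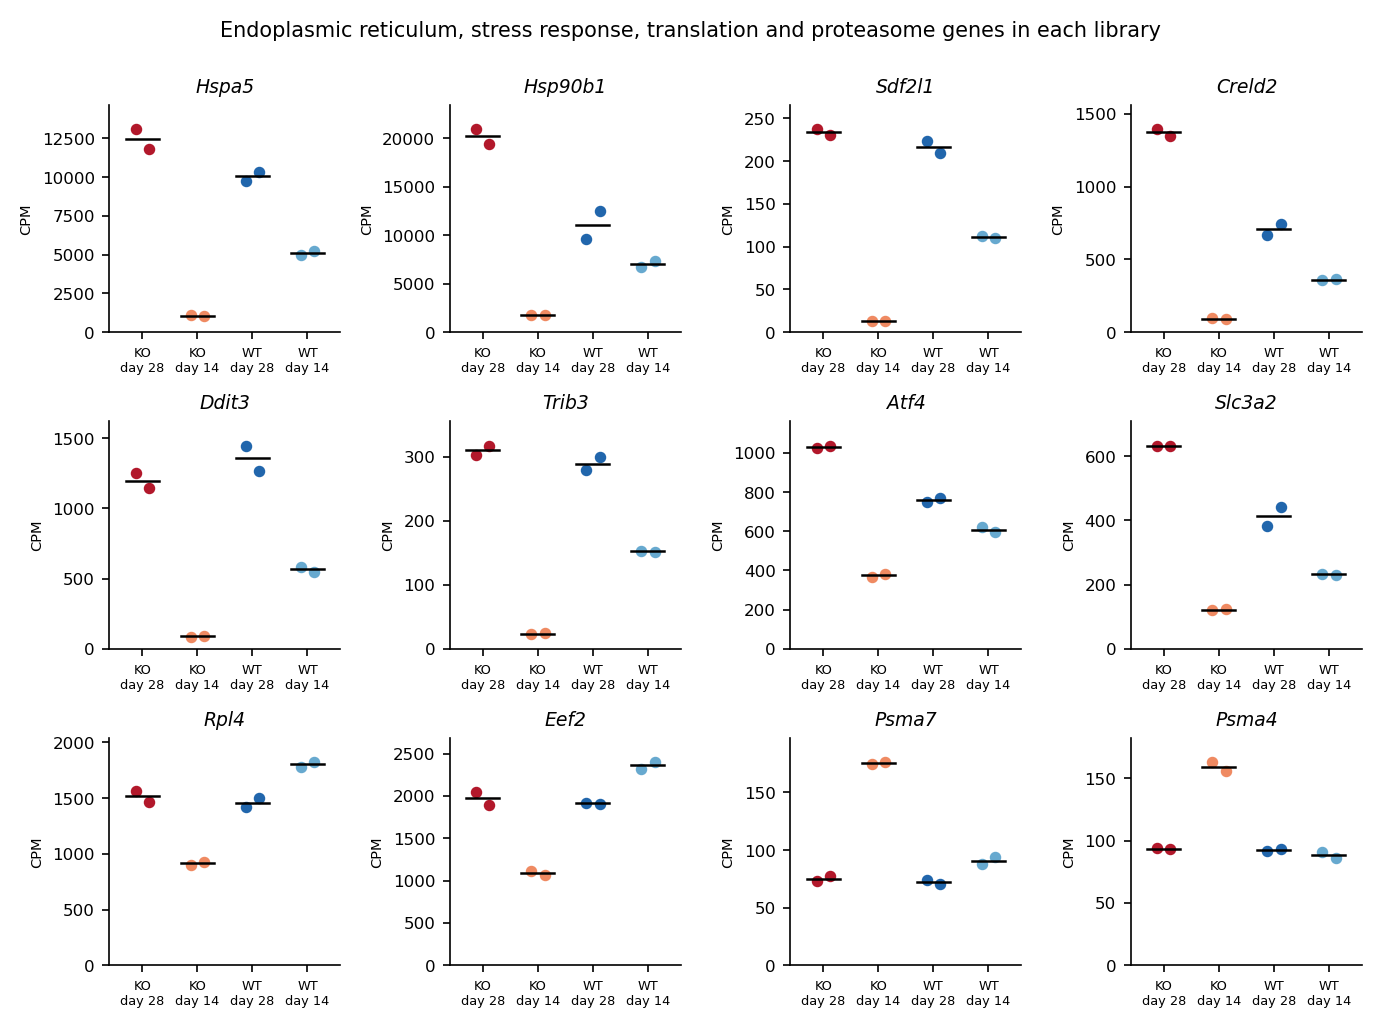
CPM of 12 genes in each of the 8 libraries (points) with the group mean (bar), KO at day 28, KO at day 14, WT at day 28 and WT at day 14 from left to right. The lowest group is KO at day 14 for the chaperone, stress, transporter, Rpl4 and Eef2 panels, and it is the highest for Psma7 and Psma4.

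The translation apparatus and the proteasome separated in opposite directions. Of 36 cytosolic ribosomal protein genes, 32 were higher and 0 lower in the difference (median 0.60), against 12.6% and 11.5% of all genes. In KO 32 rose and 0 fell between the days, against 25.6% and 25.1% of all genes. In WT 1 rose and 14 fell, against 17.9% and 16.8%. Rpl4, a large-subunit protein gene, stood at 1567 and 1468 CPM in KO at day 28 and 903 and 926 CPM in KO at day 14, against 1425 and 1497 CPM in WT at day 28 and 1784 and 1823 CPM in WT at day 14. It rose in KO by 0.73 ± 0.064 and fell in WT by 0.30, with a difference of 1.03 ± 0.090, adjusted p = 2.7e-08. Rpl3 (0.91 ± 0.094) and Rps6 (0.92 ± 0.096) were likewise up in KO and down in WT. Ribosomal protein genes have many processed pseudogenes, and no source used here states how reads with several matches were counted. The elongation factor gene Eef2 differed by 1.17 ± 0.089.

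Of 26 proteasome subunit genes, 0 were higher and 22 lower in the difference (median -0.53), against 11.5% of all genes called lower. All 26 fell in KO between the days, against 25.1% of all genes. In WT 1 rose and 6 fell, against 17.9% and 16.8% of all genes. Psma7, a subunit of the 20S core, stood at 73.0 and 77.6 CPM in KO at day 28 and 175 and 176 CPM in KO at day 14, against 74.5 and 70.4 CPM in WT at day 28 and 87.6 and 94.1 CPM in WT at day 14. Both KO libraries of day 14 exceeded every other library. The difference was -0.90 ± 0.11, and Psma4 (-0.83 ± 0.093), Psma5 (-0.77 ± 0.14) and Psmc5 (-0.75 ± 0.10) followed. Mitochondrially encoded genes were lower in the difference in 8 of 12 tested and higher in 0 (median -0.94). In KO 4 fell and 0 rose, against 25.1% and 25.6% of all genes, and in WT 5 rose and 0 fell, against 17.9% and 16.8%. The complex I subunit gene mt-Nd2 stood at 1531 and 1062 CPM in KO at day 28 and 1556 and 1532 CPM in KO at day 14, against 1617 and 1309.7 CPM in WT at day 28 and 730.2 and 618 CPM in WT at day 14. The 2 libraries of WT at day 14 were the lowest, and the difference was -1.37 ± 0.23. The sums over all 13 genes of the list, tested or not, were 18420.0 and 15340.0 CPM in KO at day 28 and 19264 and 19779 CPM in KO at day 14, against 19935 and 17218 CPM in WT at day 28 and 13269 and 11152 CPM in WT at day 14.

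Bone matrix genes were more often lower than higher in the difference. Of 20 bone matrix and mineralization genes, 3 were higher and 10 lower in the difference (median -0.37), against 12.6% and 11.5% of all genes. Col1a1, the main chain of bone collagen, stood at 2813 and 1710.1 CPM in KO at day 28 and 17934 and 17684 CPM in KO at day 14, against 3054 and 2046 CPM in WT at day 28 and 6895 and 7505 CPM in WT at day 14. Both KO libraries of day 14 exceeded the rest, while KO and WT at day 28 overlapped. It fell by 2.98 on the log2 scale in KO and less in WT, with a difference of -1.48 ± 0.22, adjusted p = 3.63e-05. Alpl, the phosphatase that releases phosphate for mineral, stood at 188 and 125 CPM in KO at day 28 and 991 and 942 CPM in KO at day 14, against 443 and 292 CPM in WT at day 28 and 737 and 662 CPM in WT at day 14. Both lines were lower at day 28, KO the lowest, and the difference was -1.70 ± 0.20. Omd, a keratan sulfate proteoglycan of mineralized matrix, stood at 3.37 and 3.12 CPM in KO at day 28 and 42.9 and 43.8 CPM in KO at day 14, against 24.8 and 12.7 CPM in WT at day 28 and 30.3 and 31.1 CPM in WT at day 14, with a difference of -3.05 ± 0.29. The mineralization inhibitor gene Mgp differed by -2.28 ± 0.31. In each line replicate 2 of day 28 had the lower sum over the list, 11056 and 8019 CPM in KO at day 28 against 13068 and 9429 CPM in WT at day 28; the part of this spread in the result was not tested.

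Other bone genes did not all follow Col1a1. Ibsp, a mineral-binding sialoprotein gene, fell in both lines and its difference of 0.02 ± 0.19 was not called (adjusted p = 0.949). Spp1, which encodes osteopontin, rose in both lines, less in KO, with a difference of -0.45 ± 0.12. The growth factor gene Bmp2 went the other way. It stood at 315 and 301 CPM in KO at day 28 and 62.4 and 62.1 CPM in KO at day 14, against 68.7 and 68.6 CPM in WT at day 28 and 56.5 and 54.7 CPM in WT at day 14. KO at day 28 stood far above the other groups, which lay close together, and the difference was 2.0044 ± 0.095, adjusted p = 1.82e-12. Among the 15 osteogenic transcription factors, 1 was higher and 4 lower (median -0.41), against 12.6% and 11.5% of all genes. The higher one was Atf4, which is also in the integrated stress response list. Runx2, the master regulator of the osteoblast lineage, stood at 125 and 107 CPM in KO at day 28 and 342 and 314 CPM in KO at day 14, against 128 and 101 CPM in WT at day 28 and 177 and 170.0 CPM in WT at day 14. The highest group was KO at day 14 and the lines overlapped at day 28, with a difference of -0.90 ± 0.14. Dlx5, a homeobox factor gene of osteoblasts (-1.10 ± 0.15), was also lower. Sp7, which encodes osterix, fell in both lines and was not called (-0.37 ± 0.23, adjusted p = 0.263); it was called without replicate 1 of KO at day 28, without replicate 2 of WT at day 28 and with no filter on low counts. The count of these factors called lower was 7 without replicate 1 of KO at day 28 and 9 without replicate 2 of WT at day 28, and the count called higher was 2 without replicate 2 of KO at day 28 or replicate 2 of WT at day 28.

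**Figure D3:**
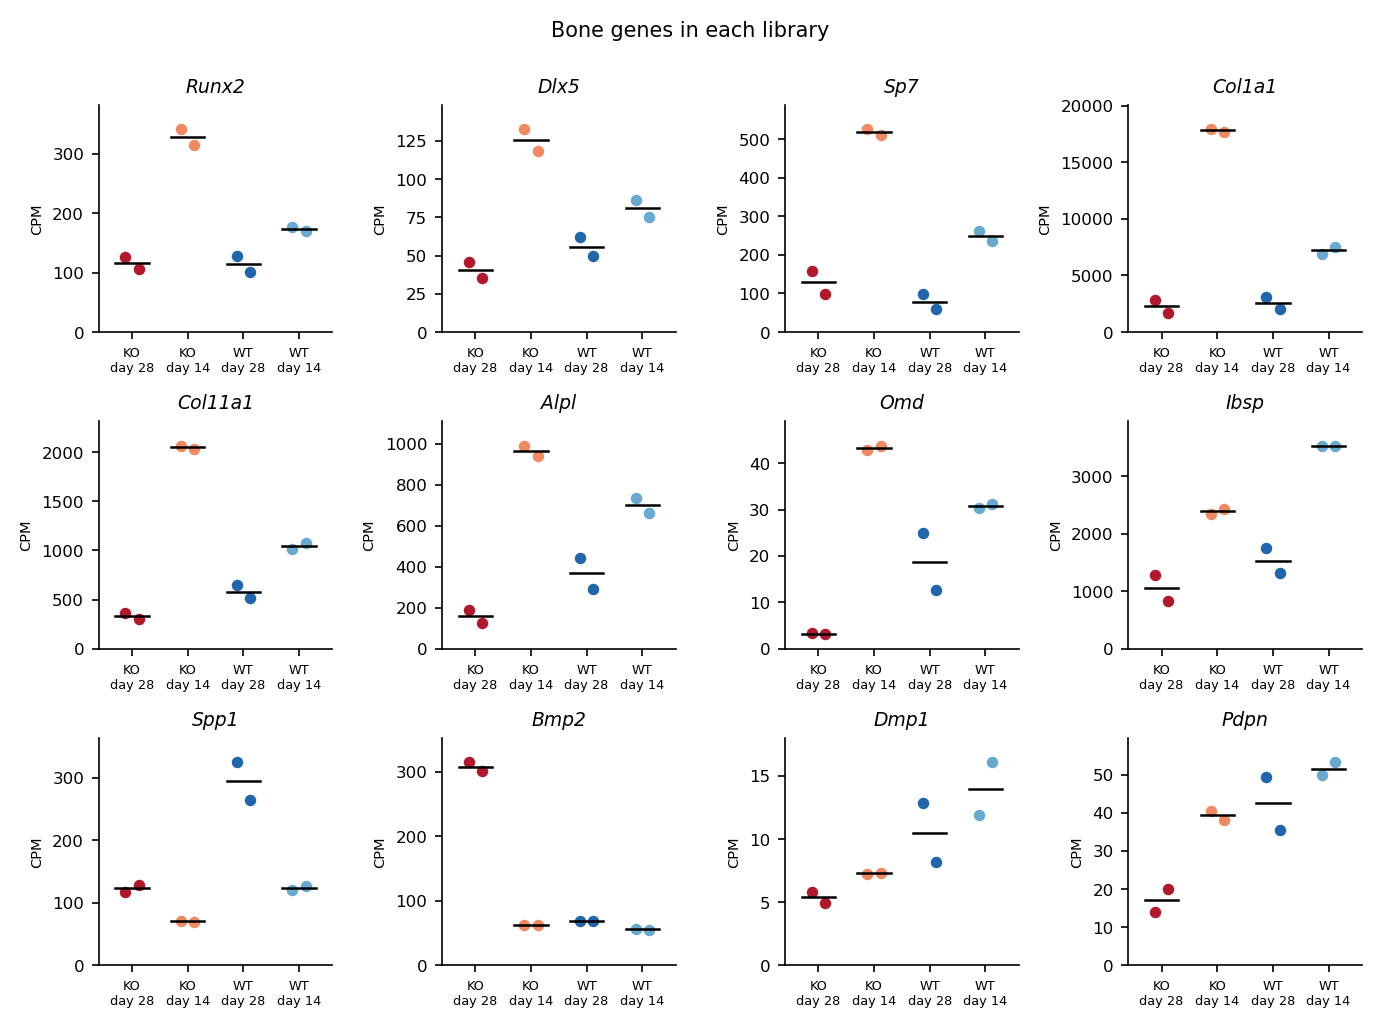
CPM of 12 bone genes in each of the 8 libraries (points) with the group mean (bar), KO at day 28, KO at day 14, WT at day 28 and WT at day 14 from left to right. KO at day 14 is the highest group for Runx2, Dlx5, Sp7, Col1a1, Col11a1, Alpl and Omd, and KO at day 28 for Bmp2.

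Of 17 osteocyte markers tested, 1 was higher and 3 lower in the difference, against 12.6% and 11.5% of all genes, so the share called was near that of all genes. Without replicate 1 of WT at day 28, 2 were higher. Dmp1, a matrix protein of osteocytes that regulates mineral, stood at 5.80 and 4.96 CPM in KO at day 28 and 7.27 and 7.29 CPM in KO at day 14, against 12.8 and 8.17 CPM in WT at day 28 and 11.9 and 16.1 CPM in WT at day 14, and its difference of -0.06 ± 0.32 was not called (adjusted p = 0.915). Phex, Mepe and Sost were also not called and were at or below 7.06 CPM in each library. Fgf23 had at most 1 count in any of the 8 libraries and Kera 0, so neither was tested. Pdpn, an early osteocyte membrane glycoprotein gene, stood at 14.1 and 19.9 CPM in KO at day 28 and 40.4 and 38.1 CPM in KO at day 14, against 49.5 and 35.6 CPM in WT at day 28 and 49.8 and 53.2 CPM in WT at day 14, with a difference of -0.92 ± 0.20.

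Enzymes that modify and cross-link collagen were mostly lower. Of 26 tested, 4 were higher and 17 lower (median -0.65), against 12.6% and 11.5% of all genes. The cross-linking oxidase genes Loxl3 (-1.35 ± 0.14) and Loxl2 (-1.23 ± 0.16) and the collagen prolyl isomerase genes Fkbp14 (-1.07 ± 0.14) and Fkbp10 (-1.05 ± 0.13) were the 4 with the lowest differences. The members that were higher were P4hb (0.65), Ppib (0.64), Loxl4 (0.51) and Tmem38b (0.87). P4hb also belongs to the chaperone list. Of 22 collagen chains, 6 were higher and 9 lower, with Col11a1, a fibrillar chain, at -1.78 ± 0.12. Col18a1, a basement membrane chain, rose by 1.86 ± 0.076 in KO and by 0.36 ± 0.068 in WT.

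**Figure D4:**
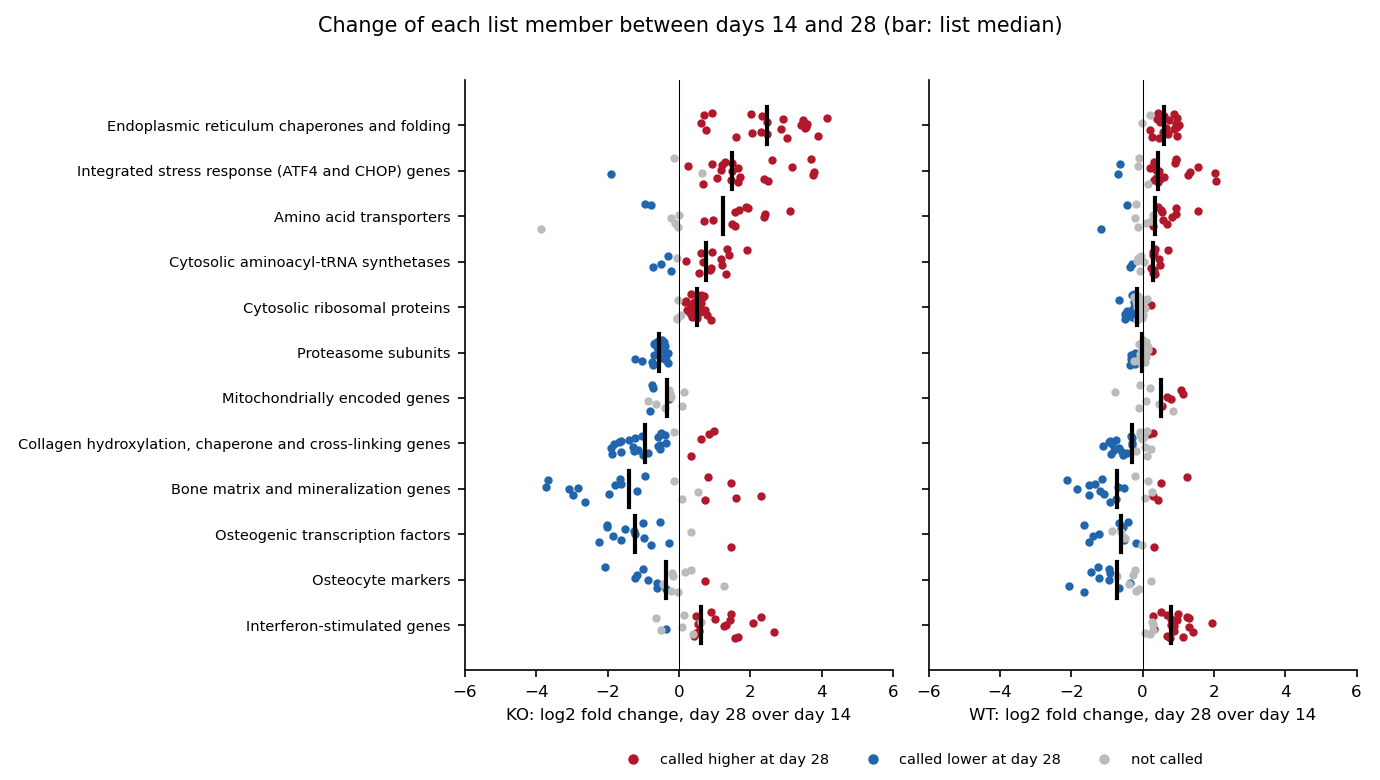
Log2 fold change of day 28 over day 14 for each member of 12 gene lists in KO (left) and WT (right), with red for called higher, blue for called lower, grey for not called and a bar at the list median. The chaperone median is 2.48 in KO and 0.59 in WT.

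Adhesion, signalling and metabolic groups were more mixed. Of all genes, 12.6% were higher and 11.5% lower in the difference. Of 23 integrins and laminins, 9 were higher and 3 lower, the higher ones including Lama1 (2.34 ± 0.12) and Lama4 (1.41 ± 0.13), chains of basement membrane laminins; 1 was lower without replicate 1 of KO at day 14. Of 25 YAP/TAZ target genes, 9 were higher and 1 lower, the higher ones including Amotl2 (1.17 ± 0.12) and Ajuba (1.05 ± 0.21). Their median difference was 0.46, and 0.223 without replicate 1 of WT at day 28. The transgene row named for YAP had most of its counts in WT, and its part in this list was not tested. Of 18 Wnt/beta-catenin target genes, 4 were higher and 9 lower, with the feedback inhibitor genes Apcdd1 at -1.56 ± 0.21 and Notum at -1.64 ± 0.40; Notum was not called without replicate 1 of WT at day 28 (-1.13, adjusted p = 0.0598). Of 13 fatty acid synthesis genes, 0 were higher and 6 lower, led by the elongase gene Elovl6 (-2.30 ± 0.20). Of 31 replication and mitosis genes, 6 were higher and 13 lower, with Plk1 at -1.12 ± 0.13. Of 20 glycolytic genes, 3 were higher and 8 lower, with Aldoa at -1.36 ± 0.20 and Tpi1 at -1.14 ± 0.20; 5 were higher without replicate 1 of WT at day 28, and 5 lower without replicate 2 of WT at day 14. Interferon-stimulated genes rose in both lines, 16 of 23 in KO and 18 in WT, against 25.6% and 17.9% of all genes. In the difference 3 were higher and 2 lower, near the shares of all genes. The count called higher was 5 without replicate 1 of KO at day 28 or replicate 1 of WT at day 28 and 0 without replicate 2 of KO at day 28 or replicate 1 of KO at day 14, and the count called lower was 5 without replicate 2 of KO at day 28.

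Membrane, matrix and cytoskeleton lists followed no single direction, where 12.6% of all genes were higher and 11.5% lower in the difference. Of 21 mechanosensitive channels, connexins and pannexins, 7 were higher and 3 lower, Piezo1 itself being 1 of the higher ones; the lower count was 1 without replicate 1 of WT at day 28 and 5 without replicate 2 of WT at day 28. The potassium channel gene Kcnk2 differed by 1.47 ± 0.24 and the gap junction gene Gja1, which encodes connexin 43, by -0.86 ± 0.13. Of 20 small leucine-rich proteoglycans and matricellular genes, 4 were higher and 9 lower, with the collagen-binding proteoglycan decorin (Dcn) at -1.78 ± 0.28; 2 were higher without replicate 1 of KO at day 14 or replicate 1 of WT at day 14. Of 25 contractile actin cytoskeleton genes, 4 were higher and 11 lower, with the actin-binding protein gene Tagln at 1.37 ± 0.24 and the tropomyosin gene Tpm1 at -0.74 ± 0.10. The lower count in that list was 6 without replicate 1 of KO at day 14 and 7 without replicate 2 of WT at day 14.

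**Figure D5:**
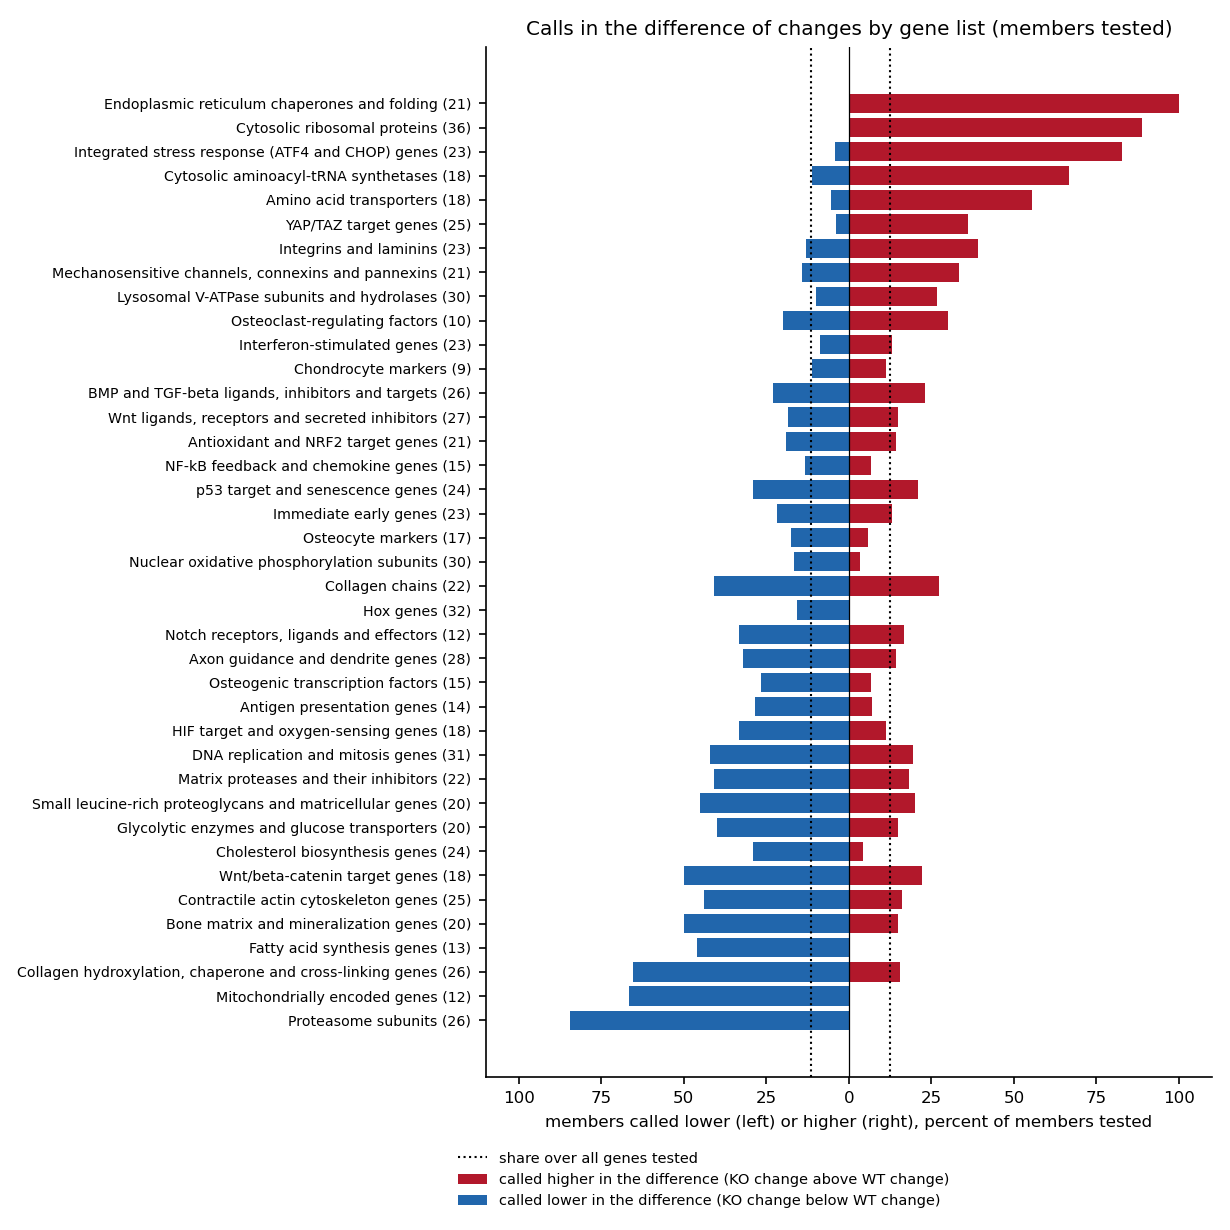
Share of the tested members of each gene list called higher (red, right) or lower (blue, left) in the difference of changes, with the number tested in parentheses; the dotted lines are the shares over all genes, 12.6% and 11.5%. The chaperone list is at the top and the proteasome list at the bottom.

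Among genes called in opposite directions in the lines, Fst, the activin antagonist follistatin, stood at 59.2 and 45.4 CPM in KO at day 28 and 17.9 and 18.8 CPM in KO at day 14, against 39.1 and 34.3 CPM in WT at day 28 and 63.2 and 74.5 CPM in WT at day 14. KO at day 28 exceeded KO at day 14, and WT at day 28 lay below WT at day 14, with a difference of 2.40 ± 0.17. Foxd1, a forkhead transcription factor gene, showed the same pattern (2.55 ± 0.18). Mmp2, a matrix metalloproteinase that cleaves denatured collagen, showed the reverse. It stood at 77.9 and 84.9 CPM in KO at day 28 and 232 and 237 CPM in KO at day 14, against 171 and 151 CPM in WT at day 28 and 105 and 123 CPM in WT at day 14, and the difference was -2.03 ± 0.11, adjusted p = 2.66e-11. The collagenase gene Mmp13 (-2.03 ± 0.34) and the aggrecanase gene Adamts4 (-1.62 ± 0.13) were likewise down in KO and up in WT.

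By size alone, with a fitted mean log2 CPM of 2 or more and every group mean at 1 CPM or more, the highest called difference was that of Cdsn, an adhesion protein gene known from skin. It stood at 294 and 313 CPM in KO at day 28 and 18.6 and 21.3 CPM in KO at day 14, against 169 and 198 CPM in WT at day 28 and 178 and 194 CPM in WT at day 14. The KO libraries of day 14 lay far below the rest, the WT days overlapped, and the difference was 3.94 ± 0.12. Avil, an actin-severing protein gene, was at 3.12 ± 0.11 and Cyb5r1 at 2.60 ± 0.084. The lowest was Car3, a carbonic anhydrase gene, which stood at 15.6 and 9.10 CPM in KO at day 28 and 665 and 655 CPM in KO at day 14, against 17.7 and 14.1 CPM in WT at day 28 and 61.9 and 65.8 CPM in WT at day 14. The KO libraries of day 14 exceeded all others, and the difference was -3.78 ± 0.20. Aldh3a1, an aldehyde dehydrogenase gene, was at -3.27 ± 0.31, and the semaphorin receptor gene Plxna2 at -2.33 ± 0.17.

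Markers of blood and endothelium were low. The summed level of 9 blood markers, tested or not, was 15.7 and 13.2 CPM in KO at day 28 and 12.7 and 14.8 CPM in KO at day 14, against 12.8 and 13.4 CPM in WT at day 28 and 13.9 and 26.6 CPM in WT at day 14. Of the 6 tested, 0 were called in edgeR's quasi-likelihood test. Their median difference was 0.69, and 1.24 without replicate 1 of WT at day 14. For 7 endothelial markers, tested or not, the sums were 10.5 and 12.0 CPM in KO at day 28 and 3.40 and 2.74 CPM in KO at day 14, against 28.0 and 25.5 CPM in WT at day 28 and 15.7 and 12.0 CPM in WT at day 14. Of the 5 tested, Vwf was called higher. Called members numbered 1 of 3 for muscle, 1 of 7 for adipocytes, 2 of 9 for chondrocytes, 1 of 3 for neural cells and 0 of 2 for epithelium, against 24.1% of all genes. Without replicate 1 of WT at day 28, 2 adipocyte markers and 1 neural marker were higher and 0 neural markers lower, and 1 neural marker was higher without replicate 2 of KO at day 28. With DESeq2, 0 muscle and 0 neural markers were called, and with a minimum count of 50, 0 muscle markers. Of the chondrocyte markers, 0 were higher without replicate 1 of KO at day 28, and 2 were lower without that library, replicate 2 of WT at day 28 or replicate 2 of WT at day 14. Of 6 fibroblast and tendon markers, 1 was higher and 3 lower, with 0 higher without replicate 2 of KO at day 14 or replicate 2 of WT at day 14. The sums over 8 such markers, tested or not, were 481 and 405 CPM in KO at day 28 and 948 and 907 CPM in KO at day 14, against 629.6 and 439.7 CPM in WT at day 28 and 797 and 757 CPM in WT at day 14. These sums, mostly Fmod and Pdgfra, were highest in KO at day 14, as were the bone matrix sums, and their part in that result was not tested.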

How the data were processed

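The authors deposited raw counts of reads for each gene in 12 libraries. The submitters' processing notes name STAR, featureCounts (Subread), edgeR and the build mm10, with no versions. No source used here gives the annotation, the strand setting or the treatment of reads with several matches. Of 32248 rows, 3 were transgene rows, kept out of totals and tests. All tests ran in edgeR 4.0.16 under R 4.3.3 (limma 3.58.1 and DESeq2 1.42.0 as alternatives). Genes were kept by filterByExpr (minimum count 10, minimum total 15), leaving 13772, and scaled by TMM. A quasi-likelihood model with 1 coefficient for each of 6 groups was fitted to all 12 libraries and had 6 residual degrees of freedom, and p-values were two-sided. Values after ± are standard errors, the log2 value divided by the square root of F. CPM use TMM-scaled totals. The procedure was tested on simulated data.

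Members, lists and alternatives were chosen with earlier results of these data known. Genes are named by rule: Piezo1 and Piezo2, the 12 highest and 12 lowest differences, the 5 smallest p in each opposite direction, up to 4 called members per list, and fixed bone genes. Genes named beyond it (Calr, Slc7a6, Asns, Phgdh, Hars, Rars, Xbp1, Selenos, Erp44, P4hb, Ppib, Loxl4 and Tmem38b) were chosen after their values were seen. Positions come from GENCODE vM21, which matched 13662 of 13772 symbols (99.2%), and promoters from RefSeq.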

Additional observations from a re-analysis of the deposited data

Results flagged for a closer look

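Genes named only from the 4 further lists under Other observations are left aside here. Of the others named by rule, 31 were called in opposite directions in the 2 lines between days 14 and 28. The naming rule raises this count, because it picks 5 genes of this kind in each direction. Over all 13772 genes tested, 282 were called both in the difference and in opposite directions. The difference itself was called for each of the 31. The 16 that rose in KO and fell in WT were Acta1 (3.11), Adamtsl3 (1.24), Ebp (1.10), Foxd1 (2.55), Fst (2.40), Fzd8 (1.54), Gas5 (1.28), Lama2 (5.33), Lama4 (1.41), Myh9 (0.84), Nt5e (1.67), Rpl3 (0.91), Rpl4 (1.03), Rps6 (0.92), Slit3 (1.09) and Tinagl1 (1.46), as log2 differences of changes. The 15 that fell in KO and rose in WT were Adamts4 (-1.62), Aldh3a1 (-3.27), Fads2 (-1.07), Fmn1 (-1.31), Hes1 (-1.11), Hoxc6 (-0.66), Ifit2 (-0.68), Mmp13 (-2.03), Mmp2 (-2.03), Pik3r3 (-1.92), Plxnd1 (-1.01), Scd1 (-0.98), Tapbp (-1.10), Tgfbi (-2.35) and mt-Cytb (-1.10). Among the genes left aside, Eef2 (1.17) and Eef1b2 (1.10) also rose in KO and fell in WT. The values of Lama2 and Acta1 rest on few counts. Lama2 had 3 and 4 counts in KO at day 28 and 0 and 0 in KO at day 14, so its fitted value depends on the prior count and is no bound. Acta1 had 15 and 15 counts in KO at day 28 and 2 and 5 in KO at day 14.

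A transgene row outside the tests was named YAPS127_P2A_EGFP. It held 7 and 2 counts in KO at day 28 and 1 and 3 in KO at day 14, against 224 and 75 counts in WT at day 28 and 82 and 45 in WT at day 14. The labels describe no such construct in either line.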

How the results depend on the processing

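The difference of changes was called for 2556 (DESeq2) to 3352 (library totals) genes over the alternative scalings, filters, tools and the fit to 8 libraries, and for 2426 (without replicate 1 of KO at day 14) to 4165 (without replicate 2 of WT at day 28) genes when 1 library was left out, against 3323. Leaving out 1 library gave 1280 to 2161 genes higher and 1144 to 2004 lower, 5565 to 7562 called in KO, 3301 to 5543 in WT, and a Piezo1 difference of 1.091 to 1.18. A lone remaining library was assumed to vary like the other groups. The share of called genes that were higher was 52.3% with TMM and 44.1% with library totals, which moved the median of all genes to -0.0488. In each alternative, all calls shared with the reported fit had the same direction. Of the 3323 reported calls, 76.8% were also called with DESeq2. The fit to 8 libraries called 2717 genes and shared 81.7% of the reported calls. The other alternatives that left no library out shared 92.2% to 98.8%. The reported fit did not pair libraries by replicate number, and the labels do not say whether same-numbered libraries belong together. Over 6 pairs of groups, the correlation of same-numbered deviations ran from -0.0402 to 0.112, the highest being KO with WT at day 28. It was taken over all genes, and a deviation shared by fewer genes was not tested. With the replicate number as a block, 3308 genes were called, 6942 in KO and 4739 in WT. None of the 201 genes named by rule with a value changed sign in an alternative while called there or in the reported fit. Sign changes of genes called in neither were not counted. Calls most often lost were those of Jag2, H2-T23 and Atg3. The list medians of osteocyte markers, osteoclast-regulating factors, antigen presentation, Wnt ligand, BMP and TGF-beta, and NF-kB genes changed sign in some alternatives. Depth limits genes of few counts, such as Mepe and Sost.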

Other observations

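A set of 4 further lists was chosen after the data were seen. Of 29 genes of the translocon, signal peptidase and oligosaccharyltransferase, which move new proteins into the endoplasmic reticulum and glycosylate them, 14 were higher and 2 lower in the difference of changes, against 12.6% and 11.5% of all genes, with a median of 0.24. The signal peptidase subunit gene Spcs3 stood at 419.6 and 421 CPM in KO at day 28 and 165 and 157 CPM in KO at day 14, against 256 and 286 CPM in WT at day 28 and 244 and 257 CPM in WT at day 14. KO at day 28 was the highest group and KO at day 14 the lowest, and the difference was 1.27 ± 0.094. Genes of the vesicle coats that carry cargo onward went the other way more often: of 30 COPI and COPII coat and cargo receptor genes, 4 were higher and 9 lower (median -0.14). Sec13, a COPII coat subunit gene, stood at 112 and 99.0 CPM in KO at day 28 and 207 and 202 CPM in KO at day 14, against 104 and 105 CPM in WT at day 28 and 97.1 and 94.1 CPM in WT at day 14. KO at day 14 exceeded the other groups, and the difference was -1.09 ± 0.10.

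Of 37 translation initiation and elongation factors, 16 were higher and 4 lower (median 0.22), including Eif4ebp1, an inhibitor of cap-dependent initiation, at 1.29 ± 0.12. Of 26 autophagy genes, 4 were higher and 0 lower, against 12.6% and 11.5% of all genes, so the share called higher was near that of all genes. Those higher included the cargo receptor gene Sqstm1 at 0.41 ± 0.093. Atg3, also higher, was not called with DESeq2 or in the fit to 8 libraries. Of 30 lysosomal V-ATPase subunit and hydrolase genes, 8 were higher and 3 lower. Hmox1, the heme-degrading enzyme gene, stood at 169.6 and 181 CPM in KO at day 28 and 36.5 and 38.6 CPM in KO at day 14, against 67.4 and 84.8 CPM in WT at day 28 and 46.0 and 52.8 CPM in WT at day 14, with a difference of 1.60 ± 0.14. With 1 library left out, the coat genes called higher numbered 7 without replicate 2 of WT at day 28, and the translation factors called lower 0 without replicate 1 of KO at day 14. The V-ATPase and hydrolase genes called higher numbered 4 without replicate 1 of KO at day 14 and 5 without replicate 2 of WT at day 14, and those called lower 5 without replicate 2 of WT at day 28. Translation factors called lower numbered 2 without replicate 2 of KO at day 28, replicate 2 of KO at day 14 or replicate 2 of WT at day 14. Translocon-list genes called lower numbered 1 without replicate 2 of KO at day 28, replicate 2 of KO at day 14 or replicate 1 of WT at day 14, and autophagy genes called lower 1 without replicate 1 or without replicate 2 of WT at day 28.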
